A study of Crocodylus porosus with 60 samples.

Results

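Small intestine and stomach of hatchling saltwater crocodiles (Crocodylus porosus) were compared through their miRNAs, the short RNAs that repress matching messenger RNAs. The deposited table gives RPM (reads of a miRNA scaled to a fixed library total) for 654 listed miRNA rows in each of 15 libraries of 10 tissues. Every row with at least 100 RPM in small intestine or in stomach was taken, which left 96 of 650 distinct rows. Of these, 90 reached 100 RPM in small intestine, 87 in stomach and 81 in both. Each organ has 1 library, and the 4 samples that carry its name share 1 value column, so no difference between the organs has a replicate check and none was tested. The labels name no treatment. They describe hatchlings of 2 size classes, runts aged 359 days that measured 386.2 ± 23.6 mm and normal animals aged 373 days that measured 740.2 ± 73.5 mm, whose tissue was flash-frozen. Neither the titles nor the column headers say whether the gut tissue came from a runt or a normal hatchling, or from 1 animal, so size class, age and animal cannot be told apart from the organ. The table names 81 of the 96 rows after a known miRNA family and 15 with an N and a number. Each organ's titles carry a short code that the labels do not explain. Arm names (-5p, -3p) are given as the table writes them.

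The small intestine absorbs nutrients through a single layer of columnar epithelium that is renewed from crypts, whereas the stomach wall has a glandular, acid-secreting mucosa over a thick muscle coat. In mammals, miR-194 and the related miR-192 and miR-215 are made from shared clusters and are abundant in intestinal epithelium, miR-143 and miR-145 are abundant in smooth muscle, and the miR-200 family keeps epithelial cells epithelial by repressing the ZEB transcription factors. A whole-organ library mixes epithelium, muscle, blood and nerve, so fewer cells of a type and less miRNA per cell cannot be told apart.

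The low values step in units worth 1 read, which put the depth at about 985000 reads in small intestine and 1580000 in stomach, within a range of 540000 to 4760000 over all libraries. The 95% intervals beside single levels (exact Poisson) and ratios (exact binomial) rest on these read estimates and cover counting error only. The 654 listed rows took 73.9% of the RPM total in small intestine and 75.1% in stomach. The 650 distinct rows held 73.4% and 74.5%, and the 96 rows 73.2% and 74.2%. Listed RPM and listed totals below count the distinct rows only. Of the marker lists, rows of intestinal epithelium summed to 78040 RPM in small intestine and 2674 RPM in stomach, and smooth muscle rows to 65160 and 112300 RPM. The lists were chosen with earlier results of these data known, so these sums are no independent check of the labels.

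Both organs shared most of their miRNAs and differed strongly in a few. A row is called parted where the levels, each with 1 RPM added, were at least 4-fold apart, and shared where they were within 2-fold. Of the 96 rows, 62 were shared (64.6%), 20 lay between these limits and 14 were parted. Among the 174 rows with at least 10 RPM in either organ, 59.8% were shared. Of the 96 rows, 11 were parted and higher in small intestine, against 22 of the 174 (12.6%). Parted and higher in stomach were 3 of the 96, against 13 of the 174 (7.47%). The 174 rows include the 96. Parted rows made up 14.6% of the 96 and 20.1% of the 174. Together the 14 rows held 13.3% of all RPM in small intestine and 3.73% in stomach. Of the rows between the limits, 3 were higher in small intestine and 17 in stomach, against 11 and 24 among the 174 rows. By sign alone 43 rows were higher in small intestine and 53 in stomach, a split that became 33 and 63 with totals taken without the 5 most abundant rows. The median log2 difference over the 96 rows, small intestine over stomach, was -0.15.

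**Figure D1:**
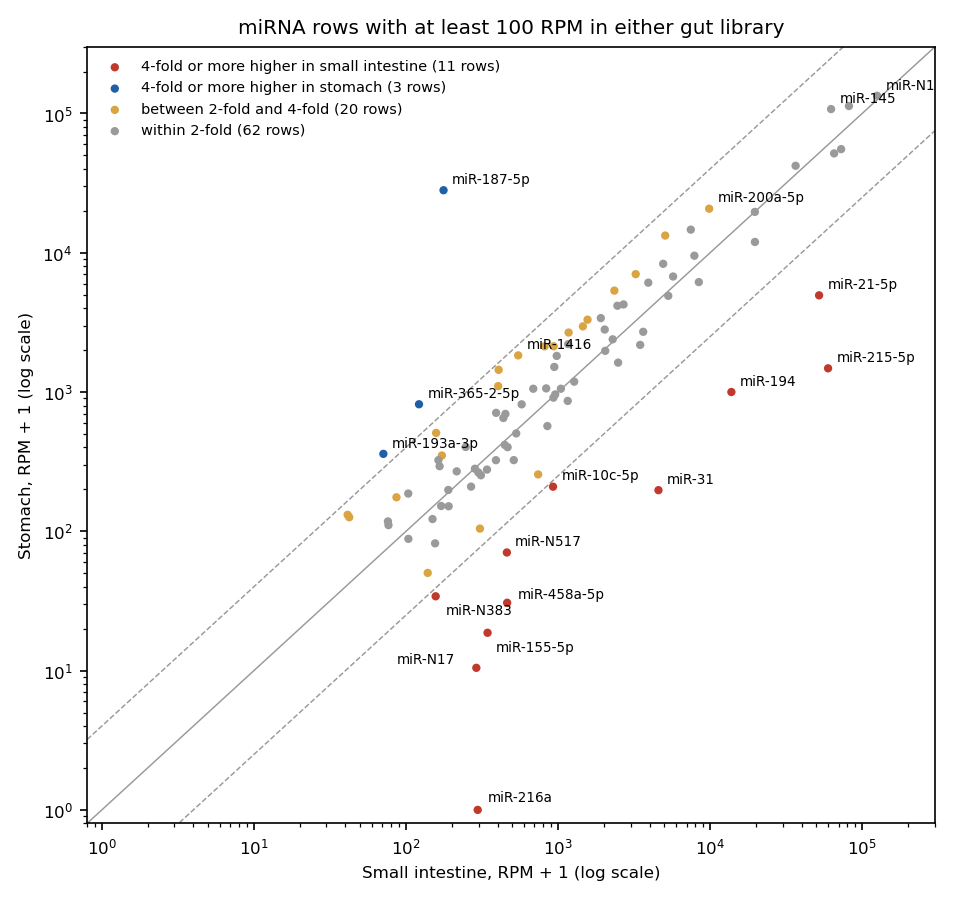
Level of each of the 96 rows in small intestine (x axis) and stomach (y axis), as RPM + 1 on log scales, with 1 library per organ. The solid line marks equal levels and the dashed lines 4-fold differences. Most points lie along the diagonal, miR-187-5p stands far on the stomach side, and miR-216a, miR-215-5p, miR-194, miR-31 and miR-21-5p stand on the small intestine side.

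Set beside other pairs of libraries, the gut pair was among the most alike. Taking rows with at least 100 RPM in either library of a pair, 14.6% were parted between small intestine and stomach. Small intestine and a library of another tissue were parted in 26.2% (tongue) to 58.1% (brain of a runt) of rows, over 13 pairs. Stomach and a library of another tissue were parted in 20.2% (tongue) to 61.7% (brain of a runt). The 8 pairs of libraries from 1 tissue ranged from 5.61%, for the testes of normal hatchlings, to 29.7%, for the heart of a normal hatchling and that of a runt. The gut organs thus differed in fewer rows than 5 of the 8 pairs drawn from the same tissue, all 5 of which set a runt against a normal hatchling. For the 316 rows that reached 10 RPM in at least 2 of the 15 libraries, the log2 levels of the gut pair gave a Pearson r of 0.94, against 0.72 to 0.90 for small intestine and 0.73 to 0.92 for stomach with the other tissues. Such likeness was not confined to the gut. Jaw skin and cloaca had 11.5% of rows parted and an r of 0.95, and cloaca and tongue 18.8% and 0.94. These correlations describe miRNA rows, which are not independent replicates and share their libraries.

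**Figure D2:**
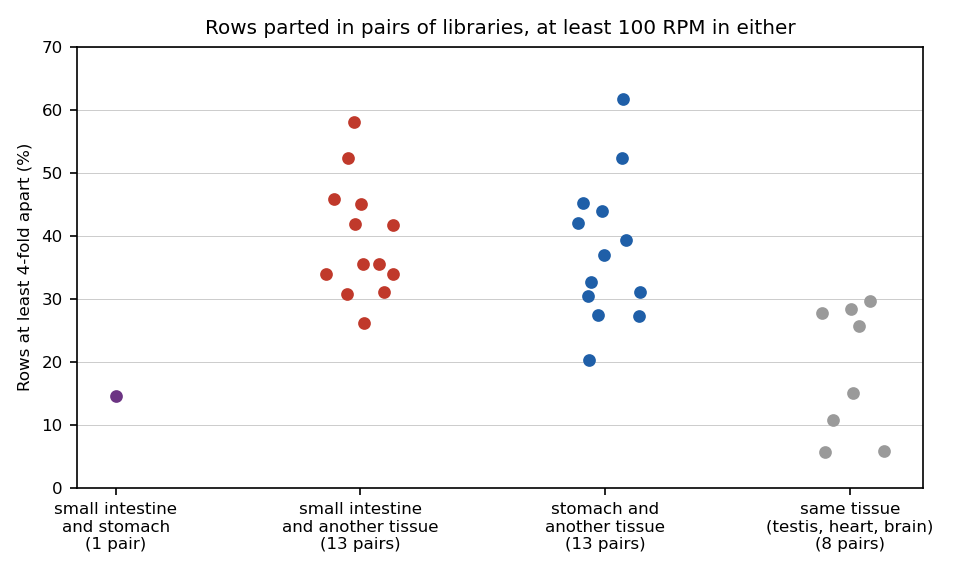
Percentage of rows at least 4-fold apart in pairs of libraries (y axis), each point 1 pair, over rows with at least 100 RPM in either library. The gut pair stands at 14.6%, under all 26 pairs of a gut organ with another tissue and inside the range of 5.61 to 29.7% of the 8 same-tissue pairs.

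The rows that fill both libraries are largely the same. Of the 10 most abundant rows in each organ, 7 were common to both, and of the first 20, 16. This overlap was not counted for other pairs of libraries, so it is not shown to be particular to the gut. Rows common to both were abundant elsewhere too, such as miR-26a-5p (103400 RPM in spleen) and miR-148-5p (143400 RPM in liver). The first 10 took 81.1% of the listed RPM in small intestine and 78.8% in stomach. The most abundant row in both organs was miR-N1, with 125400 RPM in small intestine (interval 124700 to 126100) and 134000 RPM in stomach (133400 to 134600). Next in both came miR-148-5p, at 81820 RPM in small intestine and 113100 RPM in stomach. The smooth muscle miRNA miR-145 had 62440 RPM in small intestine and 107500 RPM in stomach. These differences exceed counting error, but all are smaller than the largest difference of the same row between libraries of 1 tissue. For miR-148-5p the gut log2 difference was -0.47, and that largest same-tissue difference was 0.96.

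Several other abundant shared rows had higher levels elsewhere in the series. miR-N444, which carries no family name, had 72680 RPM in small intestine and 55430 RPM in stomach, but 600100 RPM in testis (the second library from normal animals). miR-26a-5p, a widely expressed miRNA, had 65380 RPM in small intestine and 51640 RPM in stomach. miR-30a-5p stood at 36490 RPM in small intestine and 42120 RPM in stomach. The level of miR-181a-5p, an abundant miRNA of brain and lymphocytes, was 19700 RPM in small intestine and 19650 RPM in stomach, against 127200 RPM in the brain library of a runt. The 12 most abundant shared rows also included miR-425-5p (19710 RPM in small intestine, 11950 RPM in stomach), miR-200b-5p (7465 and 14650 RPM), let-7i (7877 and 9520 RPM), miR-92-1-5p (8428 and 6156 RPM) and let-7j-5p (4913 and 8326 RPM). let-7j-5p stood at 2 times let-7a-5p in all 15 libraries, and the pairs miR-133-5p with miR-133c-5p and miR-204 with miR-211 kept the same ratio in 14 libraries each, so the rows of such a pair are not independent. The counts, medians and sums given here include both rows of each pair, and counting each pair once leaves 93 rows, of which 61 are shared. Such pairs were sought among the 96 rows only. Under 100 RPM, the rows named miR-9-5p had 89.31 and 44.65 RPM in small intestine and 96.01 and 48 RPM in stomach. They may be linked in the same way, and both enter the sums of the neuron list.

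Gut-high rows were sought as those above all 13 other libraries in both organs. Of the 96 rows 6 met this, against 5.17% of the 174 rows with at least 10 RPM. miR-N1 was the most abundant of them, and its lower gut level was 4.31-fold that of the next library, spleen (29110 RPM), and the other libraries ranged from 1183 RPM in jaw skin with a median of 5181 RPM. For miR-145 the next library was also spleen, at 27630 RPM against 62440 RPM in small intestine. miR-1416, a family described in chicken, had 546 RPM in small intestine and 1832 RPM in stomach, against at most 221.4 RPM (testis, the first library from normal animals). miR-215-5p and miR-194 belong here as well as among the parted rows. In stomach, where both are lower, miR-215-5p still stood 5.9-fold and miR-194 1.54-fold above the next library. The 6th row, miR-200a-5p, exceeded tongue (9558 RPM, 9344 to 9776) by less than counting error in small intestine (9854 RPM, 9659 to 10050), and no longer exceeded it when libraries were rescaled to their listed total.

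The row most like miR-N1 over the 15 libraries was miR-145, with a Pearson r of 0.94 for log2 levels among 95 candidate rows. miR-1416 and miR-194 followed at 0.78, miR-215-5p at 0.75 and miR-1b-5p at 0.71. Of these 5 rows 4 are, like miR-N1, above every other library in both gut organs, and all points share the 15 libraries. The candidates were themselves taken for at least 100 RPM in a gut organ. The 2 gut libraries thus enter both the choice of rows and the correlation, and the likeness is no separate evidence of a link. In the opposite direction, 4 of the 174 rows with at least 10 RPM were lower in both gut organs than in any other library. Of the 96 rows, 3 met this. They were let-7c-5p (2287 RPM in small intestine, 2390 RPM in stomach, at least 2769 RPM elsewhere) and both rows named miR-125b-5p, of which the larger had 5709 RPM in small intestine and 6752 RPM in stomach against at least 8068 RPM elsewhere. miR-125b and let-7 miRNAs are widely expressed and accumulate with differentiation in animals.

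In absolute amount, the organs differed most in an intestinal epithelial miRNA, miR-215-5p. The gaps of miR-194 and miR-31, also of that list, were smaller than that of miR-21-5p, which is not on it. miR-215-5p had 59670 RPM in small intestine (59190 to 60150) and 1479 RPM in stomach (1419 to 1540), a ratio of 40.4 (38.7 to 42.1). It made the small intestine stand alone in the series, since the 13 other libraries ranged from 0 to 250.7 RPM with a median of 25.4 RPM. miR-194 had 13800 RPM in small intestine and 999.2 RPM in stomach, a ratio of 13.8 (13.1 to 14.6). Elsewhere it peaked at 647 RPM in liver. miR-31, a miRNA of crypt epithelium and keratinocytes in mouse, had 4574 RPM in small intestine and 196.4 RPM in stomach, a ratio of 23.3 (20.8 to 26.2). Stomach held no more of it than many non-gut tissues, ranking 11th of 15, while jaw skin (2413 RPM) came next after small intestine. miR-192, the 4th entry of the intestinal list, matched no row.

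The size of these differences has to be read against libraries of the same tissue. The log2 difference of miR-31 between the organs was 4.53, and its largest same-tissue difference was 2.38, between the brains of a runt and of a normal hatchling. miR-215-5p (log2 5.33) and miR-194 (log2 3.79) were slightly exceeded by a heart pair, at 5.64 and 3.98. Those heart differences arose at low levels, with 0 RPM in the heart of the normal hatchling and 48.7 RPM in that of the runt for miR-215-5p. Over all 96 rows, the gut difference was larger than in each of the 8 same-tissue pairs in 10 rows, 7 of them higher in small intestine and 3 in stomach, against a background of 15.5% of the 174 rows. Of these 10 rows 9 are parted, and the 10th is miR-101-1-5p (305.5 RPM in small intestine, 103.6 RPM in stomach). Only the 2 testis pairs hold libraries of equal size class, and against these alone 41 rows qualified, the 14 parted ones included.

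**Figure D3:**
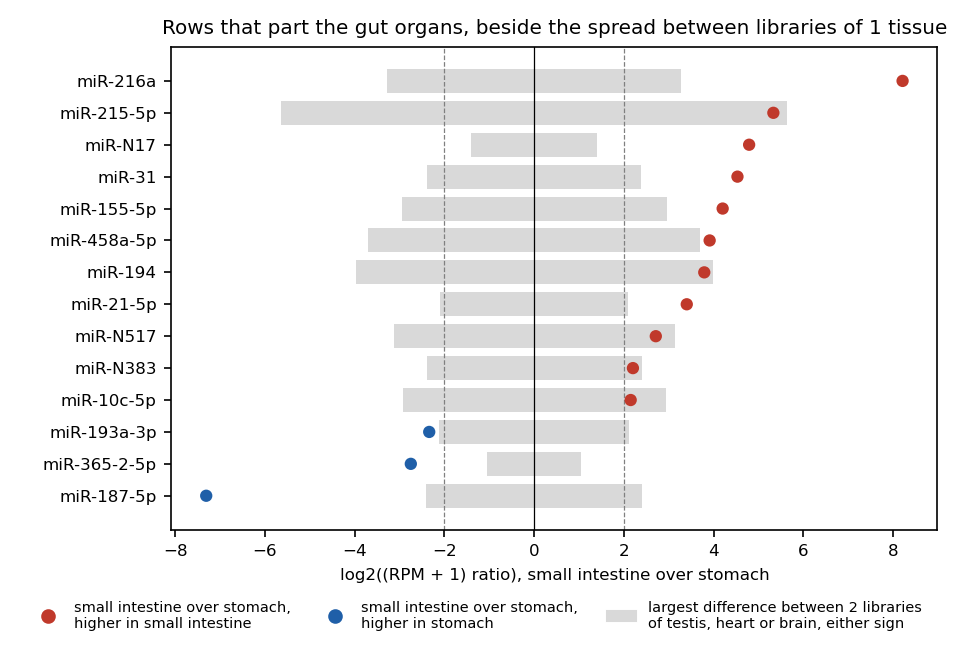
log2 difference, small intestine over stomach, of the 14 parted rows (points; 1 library per organ), with 1 RPM added to each level and dashed lines at 4-fold. Grey bars span the largest difference of the same row between 2 libraries of testis, heart or brain, drawn to both sides, and 9 of the 14 points lie outside their bar.

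A miRNA of the exocrine pancreas separates the organs by its presence alone. miR-216a, known from pancreatic acinar cells in mammals, had 295.3 RPM in small intestine (262.4 to 331.3) and was listed at 0 in stomach. With stomach set at 3 reads (1.89 RPM), its level in small intestine would be 156-fold higher. The exact interval of that 0 reaches 2.33 RPM, so 156-fold is not a strict lower limit. Outside the gut it reached 41.84 RPM and 33.19 RPM in the brain libraries and at most 8.74 RPM in any other. The list's further entries, miR-216b and miR-217, matched no row, so the exocrine pancreas is represented here by 1 row. miR-375, a miRNA of endocrine cells in pancreas and gut, had 3467 RPM in small intestine and 2179 RPM in stomach, and its companion miR-7 931.6 and 910.2 RPM. Whether pancreatic tissue was carried into the small intestine sample was not tested.

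A pair of miRNAs known from immune cells and inflamed tissue were also higher in small intestine. miR-21-5p, abundant in macrophages and in injured or proliferating epithelium, had 52080 RPM in small intestine (51630 to 52530) and 4945 RPM in stomach (4836 to 5056), a ratio of 10.5 (10.3 to 10.8). Small intestine was the highest of the 15 libraries, ahead of spleen (37660 RPM) and liver (22580 RPM). Its largest same-tissue log2 difference was 2.09, against 3.40 between the gut organs. miR-155-5p, a miRNA of activated lymphocytes and macrophages, had 343 RPM in small intestine and 17.69 RPM in stomach, a ratio of 19.4 (13.2 to 29.6). It was higher in spleen (2706 RPM) and cloaca (1686 RPM). Beside these, the lymphocyte miRNA miR-150 stood at 2482 RPM in small intestine and 1625 RPM in stomach, the myeloid miR-223 at 55.82 and 39.16 RPM, and miR-146a-5p at 26.39 and 4.42 RPM. All 4 white blood cell rows were thus higher in small intestine, with sums of 2908 RPM there and 1686 RPM in stomach, while spleen reached 40370 RPM. The part of blood or lymphoid cells in these differences was not tested.

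The remaining rows higher in small intestine had at most 926 RPM there. Of them, miR-10c-5p, miR-N517 and miR-N383 differed by less between the organs than between some 2 libraries of 1 tissue. miR-458a-5p, of a family known from non-mammal vertebrates, had 461.8 RPM in small intestine and 29.69 RPM in stomach, a ratio of 15.6 (11.5 to 21.5). The brain libraries had 409.8 and 315.8 RPM, and the heart 295.1 RPM in a runt and 21.84 RPM in a normal hatchling. miR-10c-5p, whose relatives lie in HOX clusters, had 926 RPM in small intestine and 208.1 RPM in stomach, a ratio of 4.45 (3.92 to 5.06). Its relative miR-10a-5p ran the other way, with 156.8 RPM in small intestine and 507.5 RPM in stomach. Of the unnamed rows, miR-N17 had 289.2 RPM in small intestine and 9.47 RPM in stomach (ratio 30.5, 18.2 to 55.3), and cloaca (967.7 RPM) and spleen (673.5 RPM) were higher than either. miR-N517 had 459.7 RPM in small intestine and 69.48 RPM in stomach. Spleen was highest for it at 832 RPM, and cloaca (391.1 RPM) and jaw skin (388.9 RPM) were nearly equal. miR-N383 had 155.8 RPM in small intestine and 33.16 RPM in stomach (ratio 4.70, 3.40 to 6.51). The counting intervals of miR-10c-5p and miR-N383 include 4-fold, and both rows fell short of that limit under 1 other setting each.

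Stomach was set apart by miR-187-5p above all. It had 175.6 RPM in small intestine (150.4 to 203.8) and 28100 RPM in stomach (27840 to 28360), a 160-fold higher level in stomach (137.9 to 186.9). The log2 difference of -7.31 compares with a largest same-tissue difference of 2.41. Stomach was the highest library of the series, followed by the heart of a runt (9792 RPM) and of a normal hatchling (6519 RPM), whereas small intestine ranked 11th of 15. The row took 2.81% of all RPM in stomach, which makes it the 7th most abundant there.

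The other 2 rows higher in stomach are miR-365-2-5p and miR-193a-3p, which are close neighbours in the human and mouse genomes. miR-365-2-5p had 120.8 RPM in small intestine and 816.1 RPM in stomach, 6.76-fold higher in stomach (5.60 to 8.22). miR-193a-3p had 70.02 RPM in small intestine and 358.8 RPM in stomach, 5.12-fold higher in stomach (3.99 to 6.68, an interval that includes 4-fold). Seen over all libraries, small intestine was the low organ for both. It ranked 14th of 15 for miR-365-2-5p and 13th for miR-193a-3p, while stomach ranked 3rd and 7th. Jaw skin was highest for both, at 1089 and 3178 RPM.

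**Figure D4:**
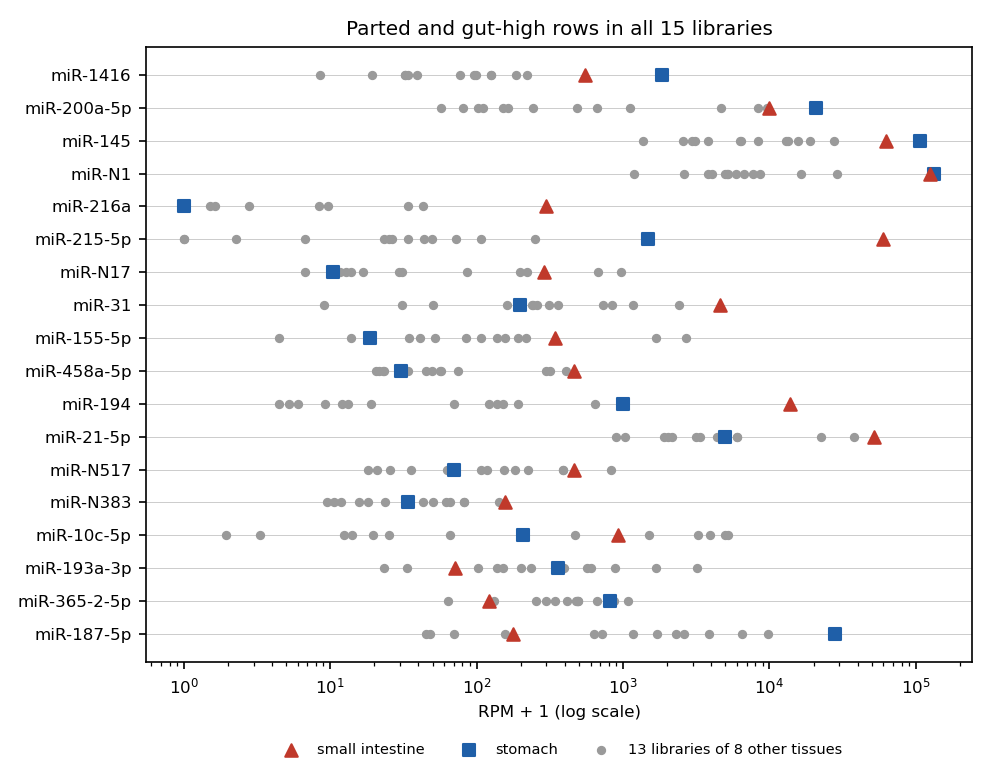
RPM + 1 (log scale) of the 14 parted rows and the 4 further rows above every other library in both gut organs, in small intestine (triangles), stomach (squares) and the 13 libraries of 8 other tissues (grey points). miR-N1, miR-145, miR-1416 and miR-200a-5p have both gut symbols at the right end, whereas miR-216a, miR-31 and miR-21-5p have only small intestine there and miR-187-5p only stomach.

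The rows highest in a gut organ are only partly the parted ones. Of the 174 rows with at least 10 RPM in either organ, 9 were highest of all 15 libraries in small intestine and 13 in stomach. Of the 96 rows, 8 were highest in small intestine and 7 in stomach. Those of small intestine were miR-216a, miR-215-5p, miR-31, miR-458a-5p, miR-194, miR-21-5p, miR-N383 and miR-101-1-5p. Those of stomach were miR-N1, miR-145, miR-200a-5p, miR-200b-5p, miR-429-3p, miR-1416 and miR-187-5p. Of these, 7 of the 8 in small intestine are parted, but in stomach miR-187-5p alone is. The lead of miR-N383 in small intestine (132.6 to 183 RPM) over liver (142 RPM) lay within counting error. So did that of miR-101-1-5p (271.9 to 342 RPM) over spleen (299.9 RPM).

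The rows between 2-fold and 4-fold leaned towards stomach, and several belong together by family. All 3 rows of the general epithelium list, the miR-200 family, were higher in stomach. They were miR-200a-5p (9854 RPM in small intestine, 20710 RPM in stomach), miR-200b-5p (within 2-fold) and miR-429-3p (935.2 and 2130 RPM). Their median log2 difference was -1.07, and no other tissue reached the stomach sum of 37480 RPM, the next being tongue at 20720 RPM. All 4 rows of the miR-23, miR-27 and miR-24 families, which are expressed in blood vessels and muscle, were higher in stomach, at a median of -1.20. Of these, miR-27-5p was within 2-fold. The largest difference was that of miR-23a, with 405.9 RPM in small intestine and 1442 RPM in stomach. miR-30c-5p had 5066 RPM in small intestine and 13290 RPM in stomach. miR-221-5p had 402.9 and 1102 RPM. miR-129-5p, a neuronal miRNA, was on the other side with 738.8 RPM in small intestine and 255.2 RPM in stomach, as was miR-101-1-5p. Each of these rows but miR-101-1-5p differed by less between the organs than between some 2 libraries of 1 tissue.

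Smooth muscle miRNAs were higher in stomach by small factors, whereas striated muscle rows ran both ways. The 4 smooth muscle and mesenchyme rows were all shared and all higher in stomach, with a median log2 difference of -0.84. All 4 differed by more than that between some 2 libraries of 1 tissue. Besides miR-145 they were 2 rows named miR-199-5p (1166 RPM in small intestine and 2206 RPM in stomach for the larger) and miR-214-5p (575.4 and 814.8 RPM), both miRNAs of mesenchymal cells. No row carries the name miR-143. Striated muscle rows, miR-133-5p and the linked miR-133c-5p both included, summed to 4327 RPM in small intestine and 8754 RPM in stomach, against 64460 RPM in the heart of a normal hatchling. miR-133-5p had 2346 RPM in small intestine and 5345 RPM in stomach, and miR-133c-5p 1173 and 2673 RPM, whereas miR-1-1-5p (309.9 and 251.6 RPM) and miR-1b-5p (465.1 and 400.7 RPM) ran slightly the other way. The other striated muscle rows stayed under 100 RPM in both organs. miR-133-3p had 30.19 RPM in small intestine and 66.48 RPM in stomach, and miR-499-3p 3.04 and 17.05 RPM. miR-206 stood at 0 and 0.63 RPM, and miR-208a at 0 in both.

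Markers of other cell types differed widely in level. The liver miRNA miR-122-5p had 445.5 RPM in small intestine and 416.2 RPM in stomach, against 208200 RPM in liver. Endothelial miR-126-5p had 3630 RPM in small intestine and 2706 RPM in stomach, above the median of 1892 RPM in the other libraries. The 11 rows of the neuron list, with both rows named miR-9-5p, summed to 2058 RPM in small intestine and 1695 RPM in stomach, against 79480 RPM in the brain of a runt. Of its 3 rows with at least 100 RPM, miR-129-5p alone was higher in small intestine, and their median log2 difference was -0.02. In small intestine and stomach, miR-128-1-5p had 1043 and 1055 RPM, miR-132 had 102.5 and 185.7 RPM, and miR-124-5p was at 0 and 1.26 RPM. Skin-type rows were low, with miR-205a at 41.61 RPM in small intestine and 9.47 RPM in stomach and miR-203-5p at 11.16 and 0.63 RPM, against a list sum of 132300 RPM in jaw skin. miR-144-5p of red blood cells stood at 13.19 and 3.79 RPM. The ciliated cell rows summed to 8.62 RPM in small intestine and 46.42 RPM in stomach, most of it miR-449a-5p (5.07 and 38.21 RPM). miR-96 and miR-183 of the sensory cluster summed to 21.31 and 33.47 RPM, and the gonad miRNA miR-202-5p was at 0 in both.

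**Figure D5:**
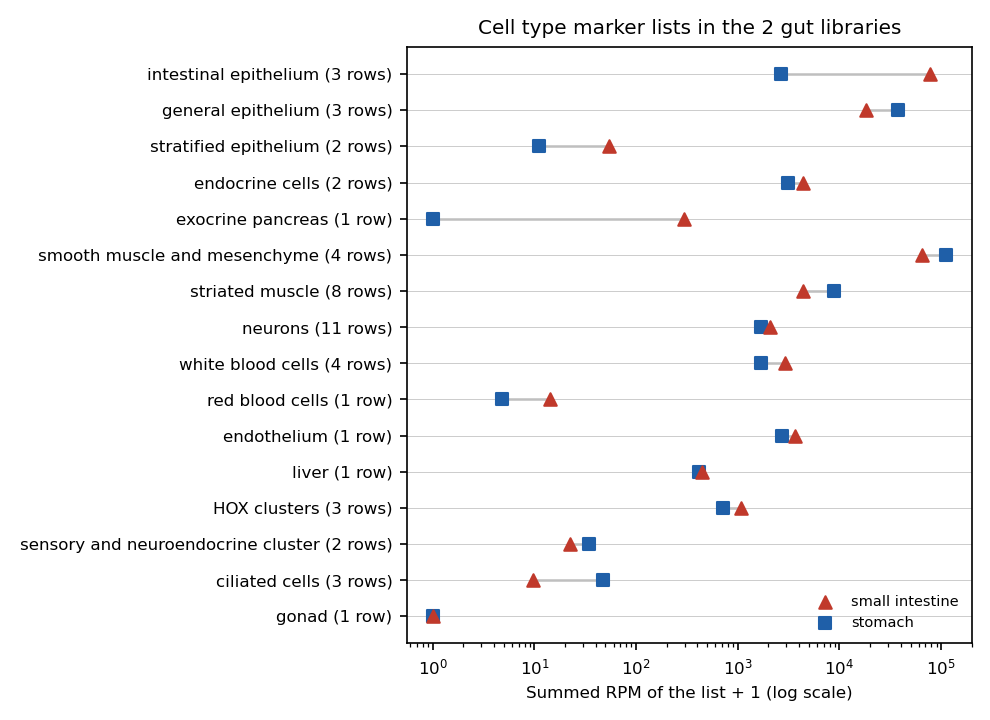
Summed RPM + 1 (log scale) of 16 cell type marker lists in small intestine (triangles) and stomach (squares), with 1 library per organ and the number of matched rows in brackets. The widest gaps are those of the exocrine pancreas row and the 3 intestinal epithelium rows, whereas liver (445.5 and 416.2 RPM), endothelium and neuron lists lie close together.

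Of the broad families, some were shared and others were not. All 9 let-7 and miR-98 rows, the linked let-7a-5p and let-7j-5p among them, were higher in stomach, 8 of them within 2-fold, at a median log2 difference of -0.66, and their sums of 26180 RPM in small intestine and 38870 RPM in stomach compare with 29110 to 80730 RPM in the other libraries. Of the 8 rows of the miR-17-92 group, made in proliferating cells, 6 reached 100 RPM, and these were higher in small intestine and within 2-fold, at a median of 0.29. Under that level, miR-19b-5p had 65.96 RPM in small intestine and 22.11 RPM in stomach, beyond 2-fold, and miR-18b 3.04 and 1.89 RPM. The 3 miR-15/16 rows of at least 100 RPM, known for restraining the cell cycle, had a median of 0.42, also towards small intestine. The median over all 96 rows was -0.15. Dividing by totals without the 5 most abundant rows moved the median of all 96 rows by -0.21, which takes the miR-17-92 median to 0.09 and the miR-15/16 median to 0.22. Among the remaining families, the miR-30 median was -0.26 over 4 rows and that of miR-99, miR-100 and miR-125 was -0.29 over 4 rows. Over 2 rows each, miR-191 with miR-425 had a median of 0.42, miR-148 with miR-152 of -0.55 and miR-221-5p with miR-222a of -1.01. A further row of that family under 100 RPM, miR-222b-3p, ran the other way and was parted, with 26.39 RPM in small intestine and 5.05 RPM in stomach. The families not shared included 3 of the 4 rows of miR-23, miR-27 and miR-24, both rows of miR-204 and miR-211, and the rows of miR-193a, miR-365, miR-21, miR-187 and miR-101. Among families with 1 row, miR-22-3p had 2027 RPM in small intestine and 2809 RPM in stomach, whereas miR-29b-1-5p stayed under the level limit at 17.25 and 17.05 RPM.

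Rows just on either side of the limits show how the counts were set. Nearest to the 4-fold limit were miR-10c-5p (log2 difference 2.15) and miR-N383 (2.20) inside it and miR-23a (-1.83), miR-1416 (-1.74) and miR-10a-5p (-1.69) outside. Nearest to the 2-fold limit were miR-211, miR-204 and miR-24-3p (each -1.02) beyond it and miR-N14 (-0.99) and miR-200b-5p (-0.97) within. The lowest rows taken were miR-16a-5p (102.7 RPM in small intestine, 87.27 RPM in stomach; listed again with equal values as miR-16-5p), miR-98-5p (75.71 and 109.8 RPM) and miR-N18 (75.1 and 116.8 RPM). Just under 100 RPM were miR-9-5p (89.31 and 96.01 RPM), miR-2188-5p (52.77 and 96.01 RPM) and miR-218-5p (63.93 and 80.53 RPM).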

How the data were processed

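Small RNA libraries of 10 tissues were quantified by the authors using the quantifier of miRDeep2 (per the file headers, version 2_0_0_8). Further tools stand in the submitters' processing notes with no step assigned: bedtools 2.26.0, bcl2fastq 2 and Bowtie 1.2.0. The genome build was not given in the sources used here. No miRNA sequence or position entered the comparison. The deposited values are RPM, as read from the values. The total they were divided by is not stated. Left out was 1 value column that no sample's labels match; the cloaca column is headed as the gland.

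Of rows with the same name the first was used, and rows identical under 2 names were used once. Differences are log2((small intestine + 1)/(stomach + 1)). The plan allowed no test with 1 library per organ. Reads were estimated from the step between low values, of which 91.4% in small intestine and 93% in stomach were whole multiples within 0.1 reads, the rest being fractions. The intervals used these estimates rounded to whole reads, whereas levels and differences used the RPM values. The calculation was tested on simulated data. Alternatives covered the scaling, pseudocount, level limit and fold limits. For ratios, a count of 0 was set at 3 reads. The spread between libraries was taken from the 8 pairs of testis, heart and brain libraries.

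The rows, the 34 lists of miRNAs and the limits were chosen with earlier results of these data known. Rows named were the parted rows, the 12 most abundant shared rows, those above every other library in both organs, and those nearest the limits. List members were named in part, some of them under 100 RPM, and the others enter only the counts, medians and sums of their lists. Python 3.11.15 with pandas 2.3.3, NumPy 2.4.6, SciPy 1.17.1 and matplotlib 3.10.9 was used.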

Additional observations from a re-analysis of the deposited data

How the results depend on the processing

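With 1 library per organ, no organ difference could be checked by leaving out a library. No paired analysis was possible either, because the labels do not say which animals gave the gut tissue. Rescaling to the listed total, by a trimmed mean of log ratios, or to the listed total without the 5 most abundant rows left 14, 14 and 13 of the 14 parted rows parted in the same direction, and a pseudocount of 10 or 0.1 RPM left 13 and 14. miR-10c-5p dropped out in the setting without the most abundant rows and miR-N383 with a pseudocount of 10. The median of the liver row and of miR-181a-5p turned negative under the trimmed mean and without the most abundant rows. Counts that moved by over 1.5 times were these. The 3 rows higher in stomach became 5 without the most abundant rows, 6 with rows from 50 RPM, and 1 with limits of 8-fold and 1.5-fold, where shared rows numbered 39. With no level limit there were 650 rows, 451 of them shared, 29 higher in small intestine and 27 in stomach. The 10 rows beyond the same-tissue spread became 41 against pairs of equal size class, and ranged from 10 to 15 without 1 testis, heart or brain library, a check added after the data were seen. Counting rows in a fixed ratio once, also added, left 93 rows with 11 and 3 parted. Depth limits rows under about 10 RPM, where 1 read is worth 1.01 RPM in small intestine and 0.632 RPM in stomach.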

Other observations

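Rows of 10 to 100 RPM parted the organs too. Of 78 such rows, 11 were higher in small intestine and 10 in stomach. By log2 difference with 1 RPM added, the largest was miR-459-5p (5.61). It had 47.7 RPM in small intestine and 0 in stomach, 25.2-fold higher if stomach is set at 3 reads. miR-490-5p was at 8.12 RPM in small intestine and 78.32 RPM in stomach. Of the unnamed rows, miR-N67 was at 32.47 RPM in small intestine and 1.26 RPM in stomach, miR-N22 at 5.07 and 62.53 RPM, and miR-N558 at 9.13 and 74.53 RPM. Above every other library in both organs were miR-1788-5p (9.13 RPM in small intestine, 21.48 RPM in stomach), miR-1662 (63.93 and 68.22 RPM) and miR-N360 (6.09 and 10.11 RPM), but the intervals of all 3 overlapped those of the next library. Of all 650 rows, 277 were listed at 0 in small intestine and 218 in stomach, the deeper library, and 176 in both. These rows were named after their values were seen.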
